A study of Rattus norvegicus with 12 samples.

Results

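The nuclear-encoded subunits of the mitochondrial respiratory chain and of ATP synthase were examined in rats after a thermal injury. Members were the probe sets of the Affymetrix RAE230A array with exactly 1 gene symbol that began with Nduf (complex I), Uqcr or was Cyc1 (complex III), began with Cox4 to Cox8 (complex IV) or with Atp5 (complex V, the ATP synthase), or was Sdha, Sdhb, Sdhc or Sdhd (complex II). This gave 85 genes, measured by 90 of the 15866 probe sets tested. Complex I had 42 probe sets of 41 genes, complex II 5 of 4, complex III 8 of 8, complex IV 16 of 16 and complex V 19 of 16. All 90 were kept, with no filter on low values.

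Each sample paired total RNA of sham-treated rats with total RNA of rats given a thermal injury, and its value is a log2 ratio of the 2 array signals. Sham is channel 1 and injury channel 2 in the labels, which do not state the order of the ratio. Injury over sham is therefore the likely reading, a value above 0 is read here as higher after injury, and every direction depends on it. The 9 samples used were 3 each at 2, 4 and 7 days after the injury. The labels give no strain, age, tissue or extent of injury. Whether the 3 samples taken on 1 day were separate animals, pools or repeats is not stated, so p-values measure only the spread between these samples, which may be technical. The 3 samples of day 1 were left out because their identifiers do not match those of the other days. In a bulk sample, fewer cells of a type and less RNA per cell cannot be told apart.

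The respiratory chain passes electrons from NADH (complex I) and succinate (complex II) through complex III to complex IV, which reduces oxygen. Complexes I, III and IV pump protons across the inner mitochondrial membrane, and ATP synthase uses the return of those protons to make ATP. Complex I in particular has a core set of subunits that carry the chemistry and a larger set of accessory subunits around them, while complex II is made of catalytic subunits and membrane anchors. Most of the genes for these complexes are in the nucleus, where nuclear respiratory factor 1 (NRF1) and ETS factors of the GABP type are known regulators. Liver, heart and brown fat are rich in these complexes.

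Promoter sequence is shown because the members make up 1 pathway with shared regulators. RefSeq windows of the GRCr8 build, with 250 bases before and 50 after the annotated start, were matched for 76 of the 85 genes. Both strands were searched for the palindromic NRF1 core (the capitals in the Atp5po sequence), its overlapping shorter form TGCGCATG and the ETS core CCGGAAG, and, chosen after seeing the sequences, for the YY1-type motif AAGATGGC. The 120 bases before the start are printed 5′ to 3′ on the gene's strand, with every match within them in capitals. Shown are 3 members with an NRF1 match and 3 members with large differences between days 4 and 7. Matches outside the printed bases are a YY1-type motif at or after the start in Ndufa3, Ndufa6 and Atp5po, and an ETS core further upstream in Ndufa6.
Ndufa11, chr9:1637494-1637613, plus strand: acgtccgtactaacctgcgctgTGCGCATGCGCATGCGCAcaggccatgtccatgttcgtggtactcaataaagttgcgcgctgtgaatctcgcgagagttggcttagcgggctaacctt
Atp5po, chr11:44657484-44657603, minus strand: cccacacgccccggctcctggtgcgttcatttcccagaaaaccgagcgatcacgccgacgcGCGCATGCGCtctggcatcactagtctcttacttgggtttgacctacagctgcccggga
Ndufa6, chr7:115750318-115750437, minus strand: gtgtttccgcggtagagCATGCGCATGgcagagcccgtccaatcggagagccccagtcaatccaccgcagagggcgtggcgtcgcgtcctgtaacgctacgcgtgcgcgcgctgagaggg
Ndufa7, chr7:15311326-15311445, plus strand: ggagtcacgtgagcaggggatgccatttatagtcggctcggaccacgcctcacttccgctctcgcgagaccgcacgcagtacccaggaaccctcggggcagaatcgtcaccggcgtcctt
Atp5f1e, chr3:183680173-183680292, minus strand: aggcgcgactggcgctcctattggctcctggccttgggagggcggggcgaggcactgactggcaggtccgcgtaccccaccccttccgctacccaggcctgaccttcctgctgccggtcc
Ndufa3, chr1:74515559-74515678, minus strand: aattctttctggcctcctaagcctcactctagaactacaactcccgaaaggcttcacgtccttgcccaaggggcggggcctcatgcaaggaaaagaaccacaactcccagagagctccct

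The palindrome lay in 5 of the 76 member promoters (6.58%, against 0.852% of the 33469 promoters in the table), and Ndufa11 held it in 2 overlapping copies. The shorter form lay in 8 (10.5% against 2.11%), the ETS core in 21 (27.6% against 8.75%) and the YY1-type motif in 17 (22.4% against 3.17%). At least 1 of the 4 was present in 36 member promoters, and 40 held none. These are matches of letters and not measured sites. The members did not separate by them: probe sets of genes with a match had a median log2 ratio of 0.31 at day 4 and -0.25 at day 7, and those of genes with none 0.30 and -0.24.

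Most members had ratios above 0 at day 4 and below 0 at day 7, and at day 2 they were close to the middle of the array. The member median was 0.01, 0.19 and -0.02 in the 3 samples of day 2, with 0 as the median of all probe sets of each array. It was 0.40, 0.29 and 0.34 at day 4, and -0.06, -0.29 and -0.50 at day 7. The day medians were therefore 0.06 ± 0.12, 0.34 ± 0.05 and -0.28 ± 0.22 (mean ± SD, n = 3). The samples of day 4 were all above those of days 2 and 7, and day 7 sample 1 lay close to 2 of the day 2 samples.

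**Figure D1:**
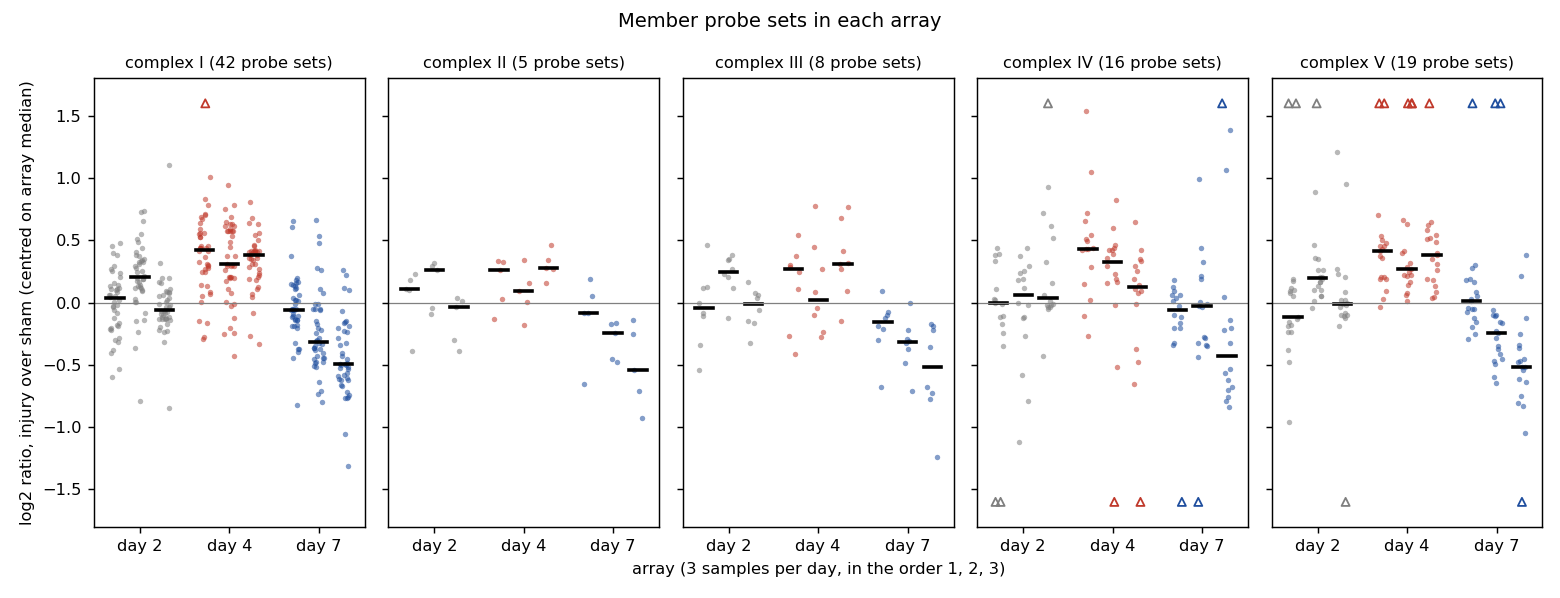
Log2 ratio of injury over sham of each member probe set (points) in the 9 arrays, by complex, with the median of the complex in each array as a black bar. Open triangles at the edges stand for 23 values past 1.6 in either direction, and each complex has its 3 day 4 medians above its 3 day 7 medians.

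The day 4 means of 83 of the 90 members were above 0, against 49.2% of all probe sets, and 67 members were above 0 in every day 4 sample, against 17.1%. At day 7 the means of 10 members were above 0, against 49.9%, and 46 members were below 0 in every sample, against 17.2%. For 60 members every day 4 sample lay above every day 7 sample (10% of all probe sets), and for 0 members the reverse held (9.15%). Both patterns together, above 0 in all day 4 samples and below 0 in all day 7 samples, were found in 36 members, against 3.94% of all probe sets.

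No single member passed the test. In the fit across all probe sets (limma, Benjamini-Hochberg adjustment, threshold 0.05), 0 members were called at day 2 (0% of all probe sets called), 0 at day 4 (0%), 0 at day 7 (0.0063%, 1 probe set) and 0 for day 7 minus day 4 (0.0063%). The mean of the 3 days (0.0126% called) and the differences of days 4 and 7 from day 2 (0% each) called 0 members too. Without adjustment, p was under 0.05 at day 2 for 1 member higher (4.08% of all probe sets) and 0 lower (3.9%). At day 4 it was under 0.05 for 29 members higher (4.34%) and 1 lower (3.84%). At day 7 there were 2 higher (6.53%) and 23 lower (4.74%). The difference between the days had the most, with 0 members higher at day 7 than at day 4 (5.78%) and 45 lower (5.31%).

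These 45 were 25 of the 42 complex I probe sets, 3 of 5 in complex II, 4 of 8 in complex III, 5 of 16 in complex IV and 8 of 19 in complex V. Day 4 minus day 2 had 11 members higher (3.33%) and 0 lower (4.12%). Day 7 minus day 2 had 0 higher (4.21%) and 11 lower (3.24%). These differences share samples, so they are not independent of one another.

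The numbers rest on single samples in part. Without day 7 sample 3 the members lower at day 7 at an unadjusted p under 0.05 numbered 3 (3% of all probe sets in the same fit). That share is near the background, so this count rests largely on that sample. Below 0 in every remaining day 7 sample were 48 members (27.1% of all probe sets). Without day 7 sample 2 the members lower at day 7 at an unadjusted p under 0.05 numbered 8 (3.86%). The median of the member means at day 7 moved from -0.25 to -0.14 without sample 3. The members higher at day 4 numbered 14 without day 4 sample 1 (2.62%) and 16 without sample 2 (2.46%). The members lower at day 7 than at day 4 numbered 28 without day 7 sample 3 (3.62%).

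**Figure D2:**
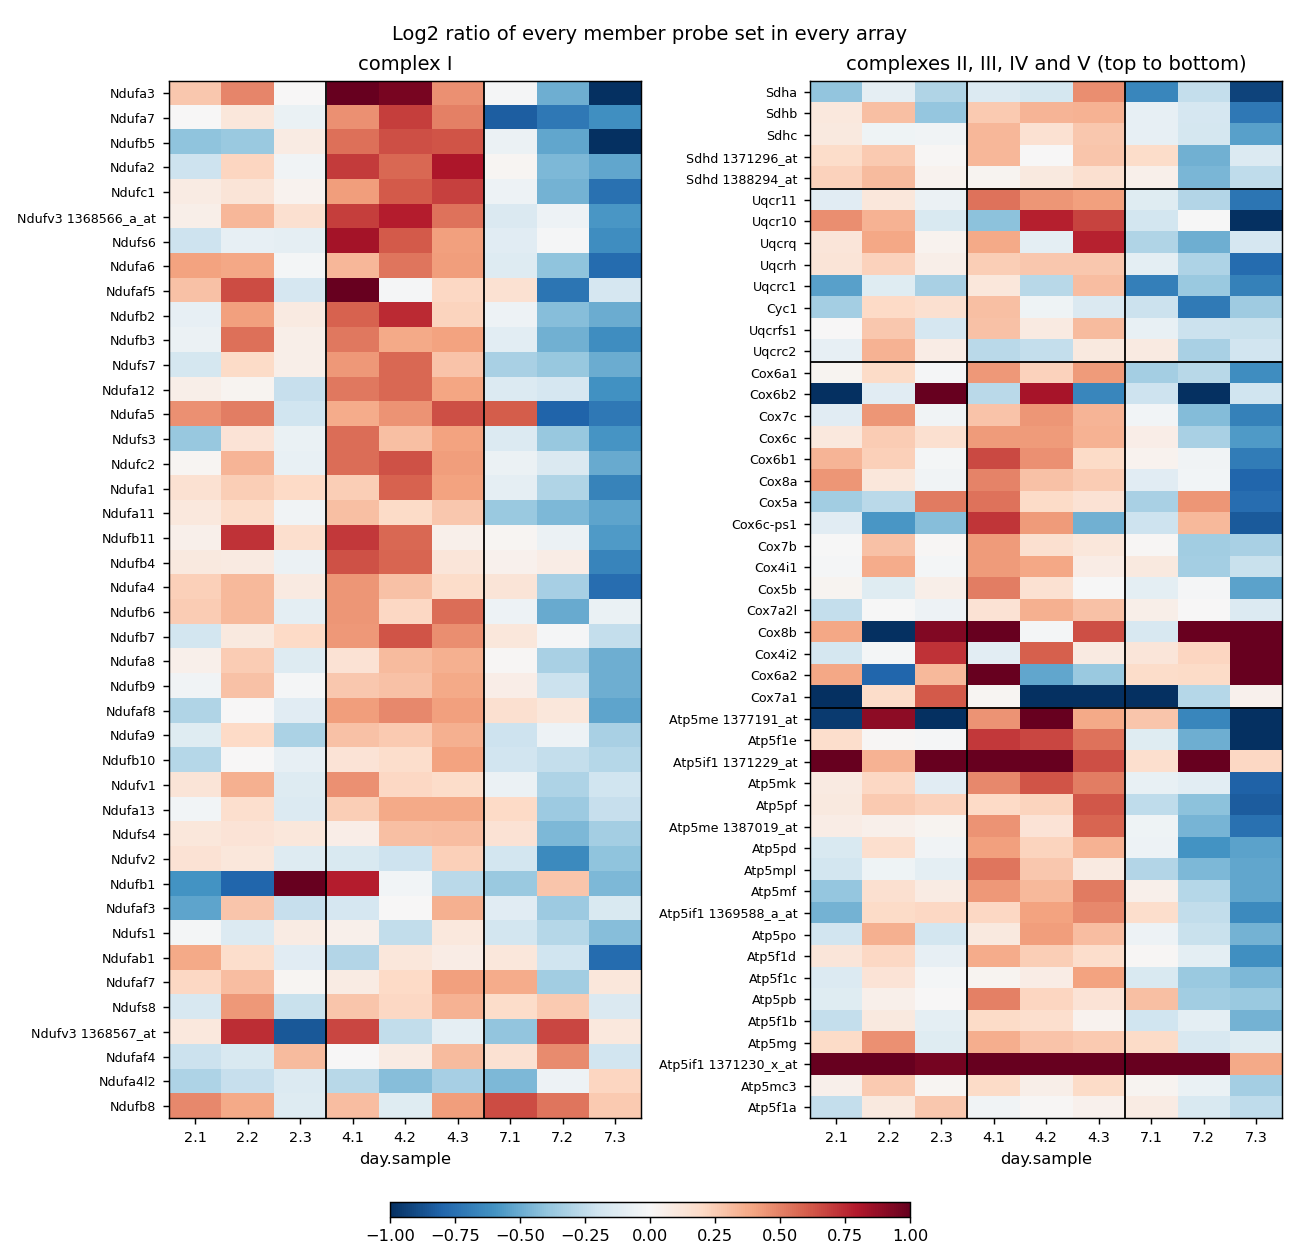
Log2 ratio of each of the 90 member probe sets in each of the 9 arrays, with red above 0 and blue below 0, ordered within a complex by the difference between days 7 and 4. The day 4 columns are mostly red and the day 7 columns mostly blue, while the tissue isoforms Cox4i2, Cox6a2, Cox6b2, Cox7a1 and Cox8b and the dim probe sets of Atp5if1 and Atp5me take strong colours of either sign.

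The members were bright on the array, and bright probe sets as a whole tilted in the same direction. Brightness is the smaller of the 2 whole numbers recovered from a ratio, in log2 units. A ratio with no recovered pair was given a cap of 14.29, so brightness at the cap is assigned and not measured. Of the 90 members 51 were at the cap, and 7 were in the dimmest 25% of the table (below 8.68). The 1015 probe sets at the cap had a median of day means of 0.07 at day 4 and -0.17 at day 7, and 34.7% of them had every day 4 sample above every day 7 sample. Among the 51 members at the cap this held for 86.3%. In day 7 sample 3 the brightest 10% of all probe sets had a median of -0.25 and the dimmest 10% 0.52. After each array was levelled by a loess curve on brightness, the member medians were 0.36, 0.23 and 0.23 at day 4 and 0.00, -0.19 and -0.27 at day 7. With that correction an unadjusted p under 0.05 was found for 7 members lower at day 7 (4.39% of all probe sets) and for 29 lower at day 7 than at day 4 (4.9%). There were 58 members above 0 in all day 4 samples (16.8% of all probe sets), with 26 below 0 in all day 7 samples (16.1%) and 43 without overlap between the days (8.89%). The day 4 level and the gap between the days were smaller but remained, and at day 7 sample 1 no longer lay below 0. Without the curve 23 members were lower at day 7 at an unadjusted p under 0.05 (4.74%). Most of that count was therefore lost under the curve. Probe sets at the cap share 1 brightness value, so the curve could not level differences in brightness among them.

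**Figure D3:**
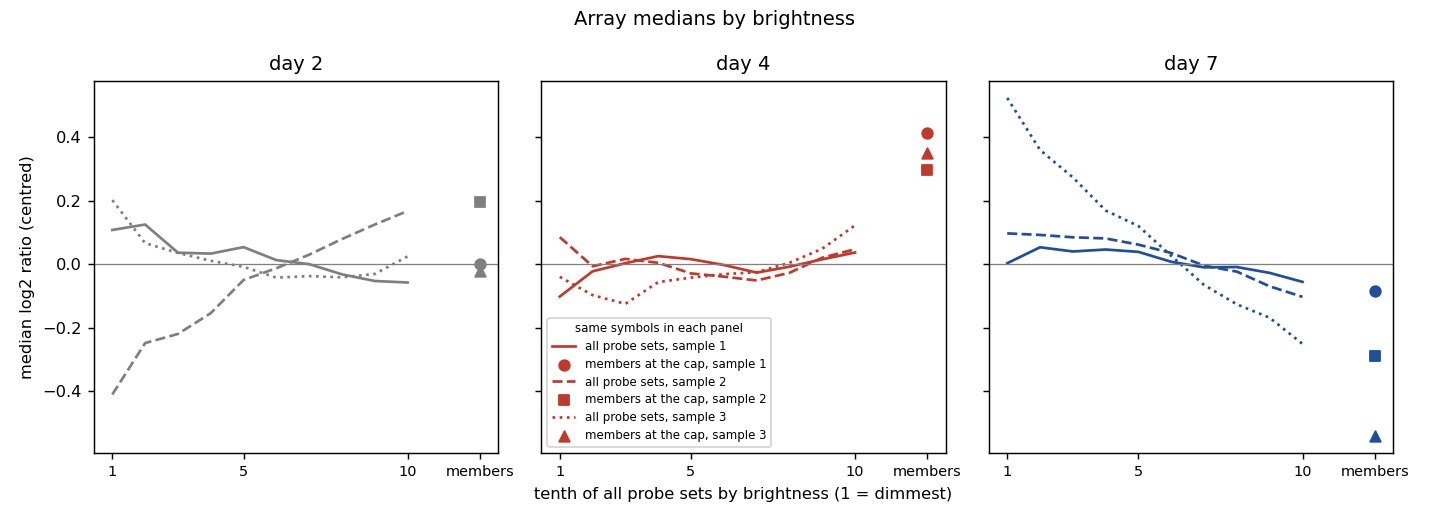
Median log2 ratio of all probe sets in each 10% step of brightness (lines, 1 per array) and of the 51 members at the brightness cap (symbols at the right), by day. At day 4 the members lie at about 0.3 to 0.4, above the brightest 10% at 0.04, 0.05 and 0.12, and at day 7 they lie below the brightest 10% in each sample.

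At day 2 the members lay on both sides of 0, with no value near the adjusted threshold. Ndufb11, an accessory subunit of complex I, had 0.05, 0.73 and 0.17, and Ndufa6 had 0.40, 0.39 and -0.02. Ndufb5 was lower, at -0.40, -0.37 and 0.08. In complex IV, Cox6b1 had 0.34, 0.24 and -0.02 and Cox7a2l, a protein linked to respiratory supercomplexes, -0.24, 0.00 and -0.05. In each of these 5 genes at least 1 sample lay near or across 0 from the others. Other members kept 1 sign at day 2, such as Cox6c at 0.11, 0.26 and 0.16, Ndufa4l2 at -0.31, -0.23 and -0.13 and Cox6c-ps1 at -0.11, -0.58 and -0.43. Above 0 in every day 2 sample were 18 members (13.5% of all probe sets), and 7 were below 0 in each (13.8%).

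Within complex I, the NADH dehydrogenase, accessory subunits had the highest day 4 ratios. The 29 accessory probe sets had medians of 0.44, 0.54 and 0.40 at day 4 and -0.05, -0.30 and -0.53 at day 7, and 28 of the 29 day 4 means were above 0. The 6 core subunits, which hold the flavin and the iron-sulfur clusters, had 0.36, 0.20 and 0.26 at day 4 and -0.16, -0.34 and -0.41 at day 7. The 5 assembly factors, which help build the complex and do not stay in it, had 0.08, 0.08 and 0.36 and then 0.15, -0.35 and -0.17. The difference between the classes was not tested.

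Ndufa7, an accessory subunit, had the smallest adjusted p among the members. Its log2 ratios were 0.46, 0.69 and 0.50 at day 4 and -0.82, -0.71 and -0.62 at day 7. The groups did not overlap, and the 3 day 7 samples lay closer together than in most members, with sample 1 as low as the other two. The means of 0.55 ± 0.12 (1.46-fold of sham) and -0.72 ± 0.10 (0.608-fold, SD, n = 3) differed by -1.27 (SE 0.17), a 2.41-fold difference, with an adjusted p of 0.175. At day 7 alone its adjusted p was 0.169. With a variance prior that follows brightness, the adjusted p was 0.0253 for the difference and 0.0495 at day 7, so Ndufa7 was called there. That fit called 3 of all 15866 probe sets for the difference and 9 at day 7. Over the 21 alternatives its adjusted p ran from 0.0253 to 0.513 for the difference and from 0.0495 to 0.59 at day 7, and its day 7 mean after the loess curve was -0.64.

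Other accessory subunits had values in the same order, most with a wider spread at day 7. Ndufv3, by its brighter probe set, had 0.69, 0.79 and 0.54 at day 4 and -0.14, -0.05 and -0.58 at day 7. Its dimmer probe set had 0.67, -0.25 and -0.09 and then -0.39, 0.66 and 0.10, so the probe sets of this gene differed in sign at day 7. Ndufa11, whose promoter holds the doubled palindrome, had 0.30, 0.19 and 0.27 at day 4 and -0.37, -0.45 and -0.53 at day 7, with a tight -0.45 ± 0.08 at day 7 (adjusted p = 0.275). Ndufa6 had 0.33, 0.54 and 0.42 and then -0.13, -0.41 and -0.77.

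Beside Ndufa7, the accessory subunits with the widest gaps between days 4 and 7 were chosen after their values were seen. Ndufa3 had 1.01, 0.95 and 0.46 at day 4 and -0.01, -0.49 and -1.31 at day 7, a difference of -1.41 (SE 0.35, adjusted p = 0.265). Ndufb5 had 0.55, 0.65 and 0.63 and then -0.06, -0.52 and -1.05. Ndufa2 had 0.70, 0.57 and 0.81 and then 0.02, -0.45 and -0.52. Ndufc1 had 0.42, 0.61 and 0.68 and then -0.05, -0.47 and -0.74. In each of these 4 genes day 7 sample 3 was the lowest value and sample 1 was near 0.

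The core subunits of complex I split at day 4. Ndufs7, an iron-sulfur subunit near the quinone site, had 0.44, 0.58 and 0.28 at day 4 and -0.32, -0.38 and -0.49 at day 7, without overlap. Ndufs3 had 0.56, 0.30 and 0.40 and then -0.14, -0.38 and -0.59. Ndufv1, which binds NADH and flavin, had 0.46, 0.20 and 0.18 and then -0.06, -0.31 and -0.20. By contrast Ndufs1, the largest subunit, had 0.05, -0.24 and 0.11 at day 4, and Ndufv2 had -0.15, -0.21 and 0.24. At day 7 these were -0.19, -0.28 and -0.43, and -0.18, -0.64 and -0.40. Ndufs8 was the core subunit with a day 7 mean above 0, at 0.18, 0.26 and -0.15.

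A few complex I genes went against the rest. Ndufb8, an accessory subunit, was the complex I probe set with every day 7 sample above 0, at 0.66, 0.53 and 0.26 (mean 0.48 ± 0.20, adjusted p = 0.382). Ndufa4l2, a hypoxia-inducible relative of Ndufa4, was the member with every day 4 sample below 0, at -0.28, -0.43 and -0.33 (mean -0.34 ± 0.08, adjusted p = 0.609). Ndufa4 itself, first assigned to complex I and now placed in complex IV, had 0.44, 0.30 and 0.19 at day 4 and 0.13, -0.33 and -0.76 at day 7. Among the assembly factors, Ndufaf4 had 0.15, 0.48 and -0.19 at day 7.

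**Figure D4:**
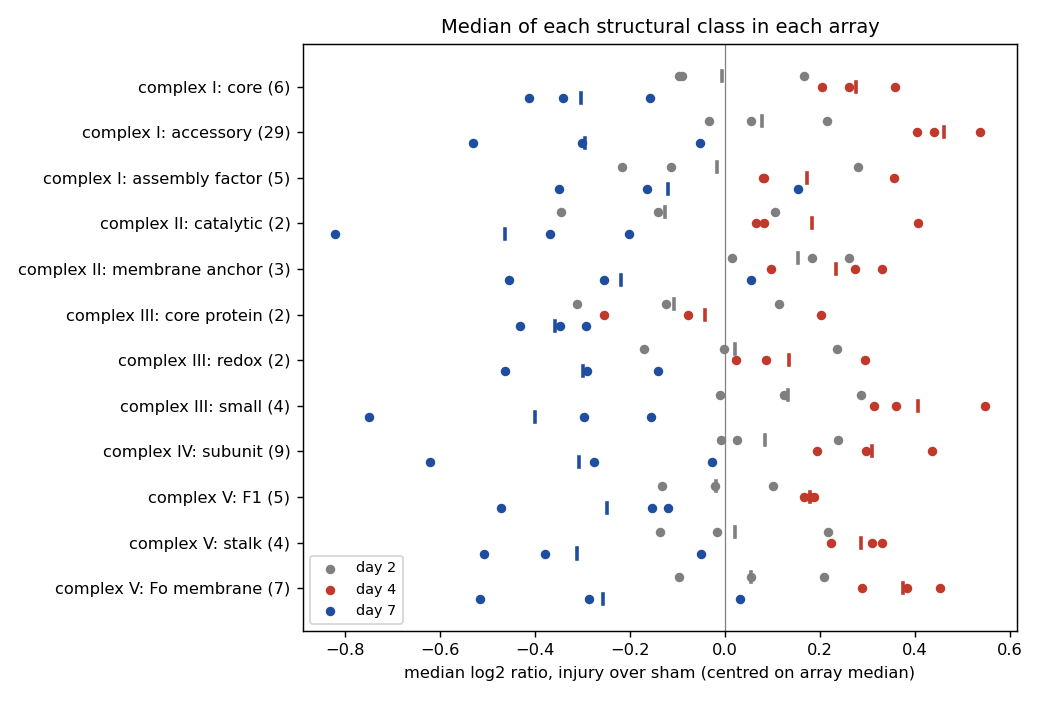
Median log2 ratio of each structural class in each array (points, 3 per day) with the mean of the 3 medians as a bar, and the number of probe sets in brackets. Day 4 points lie to the right of day 7 points in each class drawn but the assembly factors, where they overlap. The tissue isoforms of complex IV, the inhibitor Atp5if1 and members placed in no class are not drawn, and in the first 2 of these the days overlapped.

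Complex II, the succinate dehydrogenase shared with the tricarboxylic acid cycle, had medians of 0.26, 0.10 and 0.28 at day 4 and -0.08, -0.24 and -0.54 at day 7. Sdha, its flavoprotein, had -0.13, -0.18 and 0.47 at day 4 and -0.65, -0.24 and -0.93 at day 7. The day 7 mean of Sdha was -0.61 ± 0.35, or 0.656-fold of sham (adjusted p = 0.324), and its day 2 samples were below 0 as well, at -0.39, -0.09 and -0.30. Sdhb, the iron-sulfur subunit, had 0.26, 0.34 and 0.34 at day 4 and -0.09, -0.16 and -0.71 at day 7. Sdhc, a membrane anchor, had 0.33, 0.15 and 0.27 and then -0.08, -0.17 and -0.54. The 2 probe sets of Sdhd, the other anchor, had day 4 means of 0.21 and 0.09 and day 7 means of -0.14 and -0.22.

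In complex III, the cytochrome bc1 complex, the small subunits had the highest day 4 medians. The 4 small subunits had medians of 0.31, 0.36 and 0.55 at day 4, and the 2 core proteins -0.08, -0.25 and 0.20. All 8 day 7 means were below 0, and 7 of the 8 probe sets were below 0 in each day 7 sample. Uqcr11 had 0.54, 0.45 and 0.41 at day 4 and -0.12, -0.29 and -0.73 at day 7. Uqcrh, the hinge protein, had 0.25, 0.27 and 0.27 and then -0.10, -0.31 and -0.77. Uqcrq was less even, at 0.38, -0.10 and 0.77 at day 4, and so was the small subunit Uqcr10, at -0.41, 0.78 and 0.68. In 3 of the 8 probe sets every day 4 sample was above 0. Among them was Uqcrfs1, which is not a small subunit, at 0.29, 0.09 and 0.32.

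Uqcrc1, a core protein, resembled Sdha and not the small subunits. It had -0.54, -0.12 and -0.33 at day 2, 0.11, -0.27 and 0.31 at day 4, and -0.68, -0.37 and -0.67 at day 7. The day 7 mean was -0.58 ± 0.18, or 0.671-fold (adjusted p = 0.292). Uqcrc2, the other core protein, had -0.27, -0.23 and 0.10 at day 4 and 0.09, -0.33 and -0.19 at day 7. The redox subunits Cyc1 (cytochrome c1) and Uqcrfs1 (the Rieske iron-sulfur protein) had day 4 means of 0.04 and 0.23 and day 7 means of -0.43 and -0.17.

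Complex IV, the cytochrome c oxidase, divided by isoform. The 9 ubiquitous subunits had medians of 0.44, 0.30 and 0.19 at day 4 and -0.03, -0.28 and -0.62 at day 7, with all 9 means above 0 and then below 0. Cox6a1 had 0.44, 0.23 and 0.42 at day 4 and -0.34, -0.28 and -0.62 at day 7, a difference of -0.77 (SE 0.18, adjusted p = 0.263). Cox6c had 0.43, 0.42 and 0.35 and then 0.06, -0.33 and -0.57. Cox7c had 0.28, 0.44 and 0.34 and then -0.03, -0.43 and -0.68. Cox8a had 0.49, 0.30 and 0.26 and then -0.11, -0.02 and -0.79. Cox4i1, Cox5a and Cox5b had day 4 means of 0.29 ± 0.19, 0.29 ± 0.22 and 0.22 ± 0.27, and day 7 means of -0.16 ± 0.23, -0.22 ± 0.61 and -0.21 ± 0.28.

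The tissue isoforms of complex IV were dim and scattered. Cox6a2, Cox7a1 and Cox8b are isoforms of heart and skeletal muscle, Cox6b2 is the testis isoform and Cox4i2 is best known from lung. Cox7a1 had 0.02, -2.01 and -2.13 at day 4 and -1.72, -0.28 and 0.05 at day 7. Cox6a2 had 1.54, -0.52 and -0.37 and then 0.18, 0.19 and 1.94. Cox4i2 had -0.10, 0.60 and 0.09 and then 0.12, 0.21 and 1.39. Cox6b2 ranged from -2.00 to 1.78 and Cox8b from -1.12 to 1.07 over the 9 samples. The samples of days 4 and 7 overlapped in all 5, and 4 of the 5 (Cox4i2 apart) were in the dimmest 25%. Members in that dimmest 25% had a median SD within a day of 1.25, against 0.23 over all members. Cox6c-ps1, annotated as a Cox6c pseudogene, may share sequence with Cox6c, and it had 0.72, 0.42 and -0.48 at day 4.

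ATP synthase had medians of 0.41, 0.27 and 0.38 at day 4 and 0.01, -0.25 and -0.52 at day 7, and all 19 day 4 means were above 0. The 7 probe sets of the membrane part Fo had 0.45, 0.29 and 0.38 at day 4, the 4 of the peripheral stalk 0.31, 0.22 and 0.33, and the 5 of the catalytic head F1 0.19, 0.17 and 0.18. Within F1 the small epsilon subunit Atp5f1e stood apart, with 0.70, 0.67 and 0.55 at day 4 and -0.12, -0.49 and -1.05 at day 7. That is a difference of -1.19 (SE 0.25), a 2.29-fold difference, with an adjusted p of 0.255. The catalytic subunit Atp5f1b had 0.19, 0.17 and 0.04 and then -0.20, -0.10 and -0.47. Its partner Atp5f1a had -0.04, 0.01 and 0.04 at day 4, at the middle of the array in each sample, and 0.08, -0.15 and -0.25 at day 7. Atp5f1c, the rotating gamma subunit, had 0.03, 0.07 and 0.40 and then -0.16, -0.37 and -0.45.

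Of the other ATP synthase genes, Atp5pf, a stalk subunit, had 0.20, 0.22 and 0.62 at day 4 and -0.26, -0.41 and -0.83 at day 7. Atp5mpl, a small membrane protein of the complex, had 0.53, 0.27 and 0.09 and then -0.29, -0.45 and -0.52. Atp5me had 0.45, 0.14 and 0.58 and then -0.05, -0.47 and -0.75 by its bright probe set. Its dim one ranged from -2.47 to 2.02 over the 9 samples, and at day 2 its mean was -0.73 where the bright one had 0.05.

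Atp5if1, the protein that inhibits ATP hydrolysis by the synthase, was measured by 3 probe sets that did not give the same values. The brighter one had 0.21, 0.40 and 0.48 at day 4 and 0.18, -0.25 and -0.64 at day 7, like the other members. The probe set ending in _x_at, which can share sequence with other transcripts, was above 0 in 9 of 9 samples. It had 3.19, 4.08 and 0.95 at day 2, 3.03, 3.91 and 2.25 at day 4, and 5.48, 2.33 and 0.38 at day 7. The third had 2.73, 0.35 and 1.21, then 2.77, 2.74 and 0.65, then 0.16, 2.83 and 0.21. Both of these lay in the dimmest 25%, at a brightness of 7.19 and 7.25 against 11.69 for the first, so a mean over the gene would follow its dim probe sets.

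**Figure D5:**
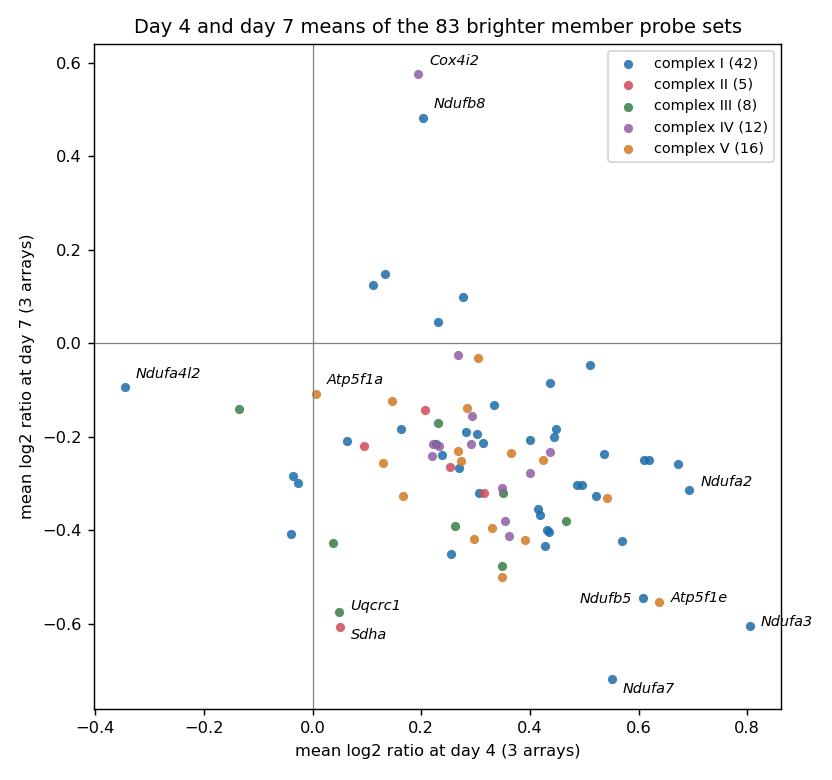
Mean log2 ratio at day 4 (x axis) against day 7 (y axis) of the 83 members above the dimmest 25%, coloured by complex, each mean over 3 arrays. Most points lie to the right of 0 and below 0, with Ndufa7, Ndufa3 and Atp5f1e at the lower right and Ndufb8 and Cox4i2 above 0 at day 7.

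Across the 83 members above the dimmest 25%, the day 4 and day 7 means had a Pearson r of -0.297 and a Spearman rho of -0.341. The same values over all probe sets were -0.048 and -0.064. Over all 90 members r was 0.59 and rho -0.175, so the sign of r turned with the 7 dim probe sets. This is a description across probe sets, which share the 6 arrays and are not independent replicates. Sdha and Uqcrc1 were near 0 at day 4 and among the lowest at day 7.

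Other mitochondrial genes were read from lists of the same pathway, with 0 members called in each list at days 2, 4 and 7 and for day 7 minus day 4. Mitochondrial ribosomal proteins, which translate the subunits encoded in the organelle, came close to the members, as did protein import at day 4. Of 82 probe sets, 73 had day 4 means above 0 (median 0.24) and 67 had day 7 means below 0 (median -0.14). An unadjusted p under 0.05 was found for 21 higher and 0 lower at day 4 and for 0 higher and 8 lower at day 7, where 4.34% of all probe sets were higher at day 4 and 4.74% lower at day 7. Mrps35 had a day 4 mean of 0.46 ± 0.03 and a day 7 mean of -0.41 ± 0.20, and Mrpl14 had 0.23 ± 0.15 and -1.07 ± 0.23. Of 26 probe sets for protein import, 22 were above 0 at day 4 (median 0.23) and 17 below 0 at day 7 (median -0.10). In this list an unadjusted p under 0.05 was found for 8 higher and 0 lower at day 4, and for 0 higher and 2 lower at day 7. Timm8b, a chaperone of the intermembrane space, had 0.71 ± 0.16 and -0.46 ± 0.33, and Timm44, of the import motor, had 1.70 ± 0.72 and -1.51 ± 0.75.

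The tricarboxylic acid cycle, which supplies NADH and succinate to the chain, was nearer than the members to the middle of the arrays at day 4. At day 7 it was nearer by less. Of 16 probe sets, 11 were above 0 at day 4 (median 0.08, members 0.31) and 12 below 0 at day 7 (median -0.20, members -0.25). Citrate synthase, Cs, was below 0 on both days, at -0.66 ± 0.12 and -0.72 ± 0.47 (F test over the 3 days, limma adjusted p = 0.337), and Idh3a had 0.94 ± 1.45 and -1.67 ± 1.84. Cytochrome c and the assembly factors outside the members had medians of 0.10 and -0.08 over 31 probe sets, and the assembly factors Foxred1 and Sdhaf2 had day 4 means of -0.61 ± 0.01 and -1.21 ± 0.86 and day 7 means of -0.08 ± 0.36 and 1.30 ± 1.03. Coenzyme Q synthesis had 0.10 and -0.10 over 12 probe sets, with Coq6 at -1.12 ± 0.87 and Coq10b at 0.22 ± 0.17 at day 4, and at -0.25 ± 0.20 and -0.57 ± 0.67 at day 7. Carriers and uncoupling proteins had 0.01 and -0.08 over 16, with Vdac1 at 0.01 ± 0.11 at day 4 and -0.27 ± 0.19 at day 7. Ucp1, the uncoupling protein of brown fat, had 0.88, -0.51 and -0.11 at day 4 and 0.90, 0.84 and 0.75 at day 7 (0.83 ± 0.07), above 0 where most members were below.

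The 14 probe sets of regulators of mitochondrial biogenesis had a median of -0.02 at day 4, with 7 above 0, and 0.04 at day 7. Tfam, the packaging and transcription factor of mitochondrial DNA, had means of 0.11 ± 0.26 and -0.11 ± 0.14. Ppargc1a, the coactivator PGC-1 alpha, had a brightness of 4.09 and means of 3.29 ± 1.42 at day 2, -0.75 ± 2.09 at day 4 and 1.78 ± 1.07 at day 7. Of the 2 probe sets of Polg, the mitochondrial DNA polymerase, the one with the smaller p over the 3 days had 0.92 ± 0.34 at day 2, -0.27 ± 0.54 at day 4 and 0.93 ± 0.46 at day 7. Its brightness was 9.76. The brighter one (11.82) had 0.19 ± 0.27, -0.19 ± 0.33 and -0.14 ± 0.25, so the probe sets differed in sign at day 7.

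Measures that moved with the days are given here, and their part in the results was not tested. The 3′ minus 5′ difference of the actin control was -0.35, 0.38 and 0.23 at day 4 and -0.88, -0.44 and -0.88 at day 7, and that of the GAPDH control 0.14, 0.31 and -0.08 and then -0.39, -0.21 and -0.80. The 16 hepatocyte probe sets, with a median brightness at the cap and none in the dimmest 25%, had medians between -0.19 and 0.25 over the 9 samples. All 14 exocrine pancreas probe sets, 6 of them in the dimmest 25%, had day 4 means above 0, with medians of 0.03, 2.96 and 1.53. The 5 red cell probe sets had day 4 medians of 0.34, 0.47 and 1.10, and the 7 of macrophages and neutrophils 0.06, 0.52 and 0.41. The 22 muscle probe sets, 12 in the dimmest 25%, had medians between -0.38 and 0.17. The 6 of brown fat and adipocytes, 2 in the dimmest 25%, had medians between -0.61 and 0.63. The 7 of kidney and gut, 5 in the dimmest 25%, had medians between -0.19 and 0.55. The 2 probe sets of each marker list with the smallest p over the days were as follows, as means at days 4 and 7. Those of Hnf4a, a hepatocyte transcription factor, had -0.23 ± 0.25 and 1.14 ± 0.47, and -0.29 ± 0.41 and 0.73 ± 0.50, the reverse of the order in the members. At day 7 Hnf4a differed from most of its list, as 12 of the 16 hepatocyte probe sets had means below 0 at day 4 and 12 at day 7. Of the pancreas list, Pnliprp1 had 2.50 ± 0.33 and 0.46 ± 0.71 and Cela1 0.17 ± 0.07 and -0.88 ± 0.31. S100a9 and S100a8, of neutrophils, had 1.29 ± 0.75 and 0.39 ± 2.04 at day 4 and 1.72 ± 0.83 and 2.48 ± 1.12 at day 7. Hbb and Slc4a1, of red cells, had 0.59 ± 0.19 and 0.63 ± 0.41 at day 4 and 0.07 ± 0.20 and 0.29 ± 0.53 at day 7. The muscle genes Acta1 and Tnnt2 had -0.20 ± 1.29 and 0.83 ± 0.17 at day 4 and -1.64 ± 0.98 and -1.01 ± 1.12 at day 7. Muc2 and Slc12a1, of gut and kidney, had 1.40 ± 1.07 and 1.05 ± 0.67 at day 4 and 0.66 ± 0.63 and 1.75 ± 1.95 at day 7. Both lay in the dimmest 25%, as did Pnliprp1, S100a8, Acta1 and Tnnt2, with brightness from 5.21 (Acta1) to 7.62 (Muc2). Cidea, which with Ucp1 led the brown fat list, had 0.23 ± 0.39 and -0.74 ± 0.50, while 5 of the 6 probe sets of that list had day 7 means above 0. In none of these 7 marker lists was a probe set called at days 2, 4 or 7.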

How the data were processed

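The deposited values are log2 ratios, with 1 value for each probe set on each array. Scaling, software and genome build are, for these values, not given in the sources used here. Continued fractions (tolerance 1e-09, cap 20000) recovered a pair of whole numbers for 94.0% to 94.7% of the ratios of an array. The other ratios were given the cap. The median over the 9 arrays of the smaller number, in log2 units, served as brightness. Brightness correlated across probe sets between 0.717 and 0.762 for the 36 pairs of arrays of days 2, 4 and 7, and between 0.00824 and 0.0296 for day 1 with another day, so day 1 was left out. Arrays were centred on their median, which lay between -0.13 and 0.16.

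Of 15923 probe sets, 57 controls were left out. The platform annotation gave 1 symbol to 12783, several to 312 and none to 2771; 6 of the 96 matching the rule had several and were left out. All 90 members were found in the GRCr8 gene table, with 0 symbols changed. The fit was limma 3.58.1 in R 4.3.3 (a mean per day over 9 arrays, 6 residual degrees of freedom, eBayes). Benjamini-Hochberg adjustment ran over all probe sets, with a threshold of 0.05. A run on simulated independent normal values checked the code, and not whether these data meet the assumptions of the fit. Tables were made in Python 3.11.15 with pandas 2.3.3. For arrays, their number limits the precision.

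The members, lists and rules were chosen with earlier results of these data known. Named were any called members, the 2 probe sets of a complex with the smallest p in each direction and day, fixed core subunits, tissue isoforms, genes whose probe sets differed in sign, and the 2 probe sets of each other list with the smallest p over the days; further genes were named after their values were seen. Alternatives were the centring, loess on brightness, quantile normalization, the variance prior, the samples in the fit, filters on probe sets, a replicate block and leaving out each sample.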

Additional observations from a re-analysis of the deposited data

Results flagged for a closer look

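The member median was above 0 in all 3 samples of day 4 and below 0 in all 3 of day 7, with a difference of -0.623 between the mean of the day 7 medians and that of day 4. The same held for complex I (-0.661), complex II (-0.501), complex III (-0.531) and complex IV (-0.47). Complex V was not among them because day 7 sample 1 was at 0.01. These differences between medians were not tested, and the tests by probe set, in which 0 members were called, are the ones given above.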

How the results depend on the processing

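Under 11 alternatives in addition to leaving out each sample, the count of called members stayed at 0 in all 7 comparisons, with 1 exception. With a variance prior that follows brightness, 1 member was called at day 7 and 1 for day 7 minus day 4 (Ndufa7 in both), and 1 for the mean of the 3 days (a dim probe set of Atp5if1). Of all 15866 probe sets that fit called 9, 3 and 49 in these comparisons, where the main fit called 1, 1 and 2. With that prior and the loess curve together, an alternative chosen after seeing the data, 0 members were called. The day 4 median of the members moved from 0.34 to 0.27 under the loess curve, and the day 7 median from -0.28 to -0.15. Leaving out each sample gave 0 to 0 called members in every comparison, and medians from -0.005 to 0.10 at day 2, 0.315 to 0.368 at day 4 and -0.393 to -0.171 at day 7. Without centring, the median of all probe sets for day 7 minus day 4 was 0.13 and that of the members -0.46. Across the alternatives, members lower at day 7 at an unadjusted p under 0.05 numbered from 3 to 33. The 3 came without day 7 sample 3 (3% of all probe sets). The 33 came with the variance prior, where 1001 of all 15866 probe sets were lower at that p. Over all probe sets, calls at day 7 numbered 1, and 12 without day 7 sample 2. No pairing by sample number was seen. Correlations of same-numbered deviations ran from -0.031 to 0.055, and those of other numbers from -0.102 to 0.092. With 3 samples a day this cannot exclude a pairing. With the sample number as a replicate block 0 members were called.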

Other observations

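Among the array's probe sets with several symbols, 6 carried a respiratory chain gene together with a related copy or pseudogene, and their signal may come from either. In all 6, every day 4 sample was above 0. The day 4 means were 0.40 for Atp5mc1, a subunit of the proton-carrying ring of ATP synthase, 0.39 for Atp5mc2 of the same ring, 0.52 for Cox7a2, 0.35 for Uqcrb, 0.56 for Ndufs5 and 0.49 for Ndufa10. The day 7 means were -0.29, 0.00, -0.30, -0.37, -0.34 and -0.75 in that order. Ndufa10 had -0.67, -0.89 and -0.67 at day 7 and, like Ndufa7, was low in each sample of that day, sample 1 included.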
